A study of Mus musculus with 4 samples.

Results

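Translation initiation factors were followed through 4 libraries of mouse hepatocytes that differed in the gene Dusp6 and in exposure to fatty acids. The members were all protein-coding genes whose symbol begins with Eif and a digit between 1 and 6, which gave 56 of the 45777 genes in the table. They comprised the core factors, their subunits and copies, the kinases of eIF2 and the proteins that bind the cap-binding factor eIF4E, and were sorted into 10 factor groups by role. Of the 56, 54 had at least 1 FPKM (fragments scaled to transcript length and library size) in all 4 libraries and were compared. Eif4e1b, known from mouse oocytes, had 0 reads in every library, and Eif4a3l1 had 1 read in the untreated WT library and 0 in the rest.

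The cells were primary hepatocytes, the main cells of the liver, from mice labelled Dusp6 knockout (KO) or wild type (WT). Dusp6 encodes a phosphatase that switches off the kinase ERK. The 4 groups were KO with fatty acids, WT with fatty acids, KO untreated and WT untreated, with 1 library in each. All cells grew in DMEM with 10% fetal bovine serum and antibiotics, and the fatty acid groups received 0.5 mM palmitic acid with 1 mM oleic acid for 24 h, begun 3 h after plating. The strain, age and sex of the mice, the form of the knockout allele, the number of mice behind each library and any vehicle in the untreated cultures are stated in none of the sources used here. With 1 library in each group, no difference between a pair of libraries has a replicate check, and none carries a p-value.

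Total read counts were 97364292 in KO with fatty acids, 89069900 in WT with fatty acids, 85423156 in KO untreated and 87272191 in WT untreated. The fewest reads of a compared member in any library was 200. The Dusp6 level matched the labels, at 1.11 FPKM in KO with fatty acids, 77.1 FPKM in WT with fatty acids, 1.42 FPKM in KO untreated and 40.7 FPKM in WT untreated. All 8 hepatocyte markers passed 1 FPKM. They summed to 13739.4, 11187.5, 12066.8 and 8620.06 FPKM in KO with fatty acids, WT with fatty acids, KO untreated and WT untreated. The 10 macrophage markers all passed 1 FPKM too, and summed to 117, 107, 101 and 46.0 FPKM in the same order. The endothelial list of 8 genes, of which 4 passed, summed to 13.6, 14.4, 19.2 and 6.76 FPKM in that order. In the same order the 8 stellate markers summed to 2.28, 0.589, 2.09 and 0.369 FPKM, and of them only Dcn passed 1 FPKM while Lrat, Des, Pdgfrb and Col1a1 stayed below 0.1 FPKM. The 4 bile duct markers summed to 1.57, 3.59, 5.55 and 3.07 FPKM, most of it Sox9, with Krt7 below 0.1 FPKM. The 9 lymphocyte and neutrophil markers summed to 10.6, 13.4, 8.10 and 7.23 FPKM, of which S100a8, S100a9 and Ptprc passed 1 FPKM and Ly6g stayed below 0.1 FPKM. The 5 red blood cell markers, all of which passed, summed to 75.2, 121, 62.0 and 70.7 FPKM. In bulk RNA, fewer cells of a type and less RNA per cell cannot be told apart.

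Translation starts when eIF2, loaded with GTP and the initiator tRNA, joins the small ribosomal subunit together with eIF1, eIF1A, eIF3 and eIF5. The cap of the messenger RNA is held by eIF4E, the scaffold eIF4G and the helicase eIF4A, and eIF5B then brings in the large subunit. Control acts at a pair of steps: kinases phosphorylate eIF2 and so block its exchange factor eIF2B, and the eIF4E-binding proteins hold eIF4E until the kinase mTORC1 phosphorylates them. In liver both steps are known to answer to amino acids, insulin and stress.

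Promoter sequences are shown for the members whose transcripts were lower by 2-fold or more with fatty acids in KO cells. Their shared direction follows from that rule. The sequences are from RefSeq on GRCm38.p6 and run from 250 bases before to 50 bases after an annotated start, 5′ to 3′ on the strand of the gene. Of the 56 members, 44 matched a promoter in the table, and Eif4g2, the other member of this set, is named only. The Eif1 window lies at chr11:100319699-100319998 on the plus strand, Eif3b at chr5:140419055-140419354 on the plus strand, Eif4ebp2 at chr10:61452620-61452919 on the minus strand and Eif5b at chr1:37997760-37998059 on the plus strand. Capitals mark the single match to the ETS-type letters CCGGAAG, read here as its reverse complement. The RefSeq gene Eif4ebp2 begins at position 61452790, inside its window, so that window was set on a start further downstream. The marked letters fall at that gene start.
Eif1: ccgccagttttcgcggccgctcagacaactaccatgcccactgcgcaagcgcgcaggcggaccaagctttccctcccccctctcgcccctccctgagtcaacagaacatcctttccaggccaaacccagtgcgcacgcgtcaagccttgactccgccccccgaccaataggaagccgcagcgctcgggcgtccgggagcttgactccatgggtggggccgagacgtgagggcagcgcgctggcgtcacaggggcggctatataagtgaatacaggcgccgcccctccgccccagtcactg
Eif3b: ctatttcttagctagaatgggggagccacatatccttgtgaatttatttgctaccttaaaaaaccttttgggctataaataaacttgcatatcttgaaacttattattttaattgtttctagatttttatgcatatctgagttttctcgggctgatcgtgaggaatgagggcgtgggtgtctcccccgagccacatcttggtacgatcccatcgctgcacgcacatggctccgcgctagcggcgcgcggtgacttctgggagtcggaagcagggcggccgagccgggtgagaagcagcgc
Eif4ebp2: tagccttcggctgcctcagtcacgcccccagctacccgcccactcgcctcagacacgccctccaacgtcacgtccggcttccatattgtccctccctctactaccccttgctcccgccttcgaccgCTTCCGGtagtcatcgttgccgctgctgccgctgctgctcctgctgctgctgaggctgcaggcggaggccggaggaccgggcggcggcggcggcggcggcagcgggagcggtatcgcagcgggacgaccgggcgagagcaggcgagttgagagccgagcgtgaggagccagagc
Eif5b: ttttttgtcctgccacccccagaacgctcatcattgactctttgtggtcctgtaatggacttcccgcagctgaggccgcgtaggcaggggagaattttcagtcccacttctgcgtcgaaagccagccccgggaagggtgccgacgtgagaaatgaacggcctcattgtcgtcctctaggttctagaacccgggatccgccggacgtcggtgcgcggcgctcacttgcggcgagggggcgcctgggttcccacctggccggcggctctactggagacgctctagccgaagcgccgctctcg

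These windows had little in common at the level of the letters searched. Their GC content was 66.3% for Eif1, 49% for Eif3b, 70% for Eif4ebp2 and 62.7% for Eif5b. The letters CCGGAAG, searched on both strands as all these motifs were, none of which contains another, occurred in 1 of the 4 windows, in 16 of the 44 matched members (36.4%) and in 21.9% of matched compared genes. The E-box CACGTG, the site class of MYC and its relatives, occurred in none of the 4 windows, in 10 of 44 members (22.7%) and in 12.2% of matched compared genes. The cAMP response element TGACGTCA was found in 0 of 44 members, against 3.72% of matched compared genes. A terminal oligopyrimidine start, a C followed by at least 4 pyrimidines at the annotated start, was found in Eif2s3x and Eif3f, 2 of 44 members (4.55%), against 2.79% of matched compared genes. A match describes the letters only and is not a shown binding site.

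Initiation factor transcripts were abundant in all 4 libraries. The 56 genes took 1.23% of reads in KO with fatty acids, 1.07% in WT with fatty acids, 1.27% in KO untreated and 1.26% in WT untreated. Of the 54 compared members, 43 had at least 5 FPKM in every library and 9 had at least 100. Eif4a1, the helicase that unwinds leader sequences, was the highest member in every library at 871 FPKM in KO with fatty acids, 805 FPKM in WT with fatty acids, 718 FPKM in KO untreated and 833 FPKM in WT untreated. Eif6, a factor that keeps the ribosomal subunits apart, followed in mean level, and Eif4a2 and Eif5a, an elongation and termination factor despite its name, held the next places. The lowest compared members were the minor copies Eif5a2, at 1.00 to 1.37 FPKM, and Eif4e3, at 1.11 to 2.09 FPKM.

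**Figure D1:**
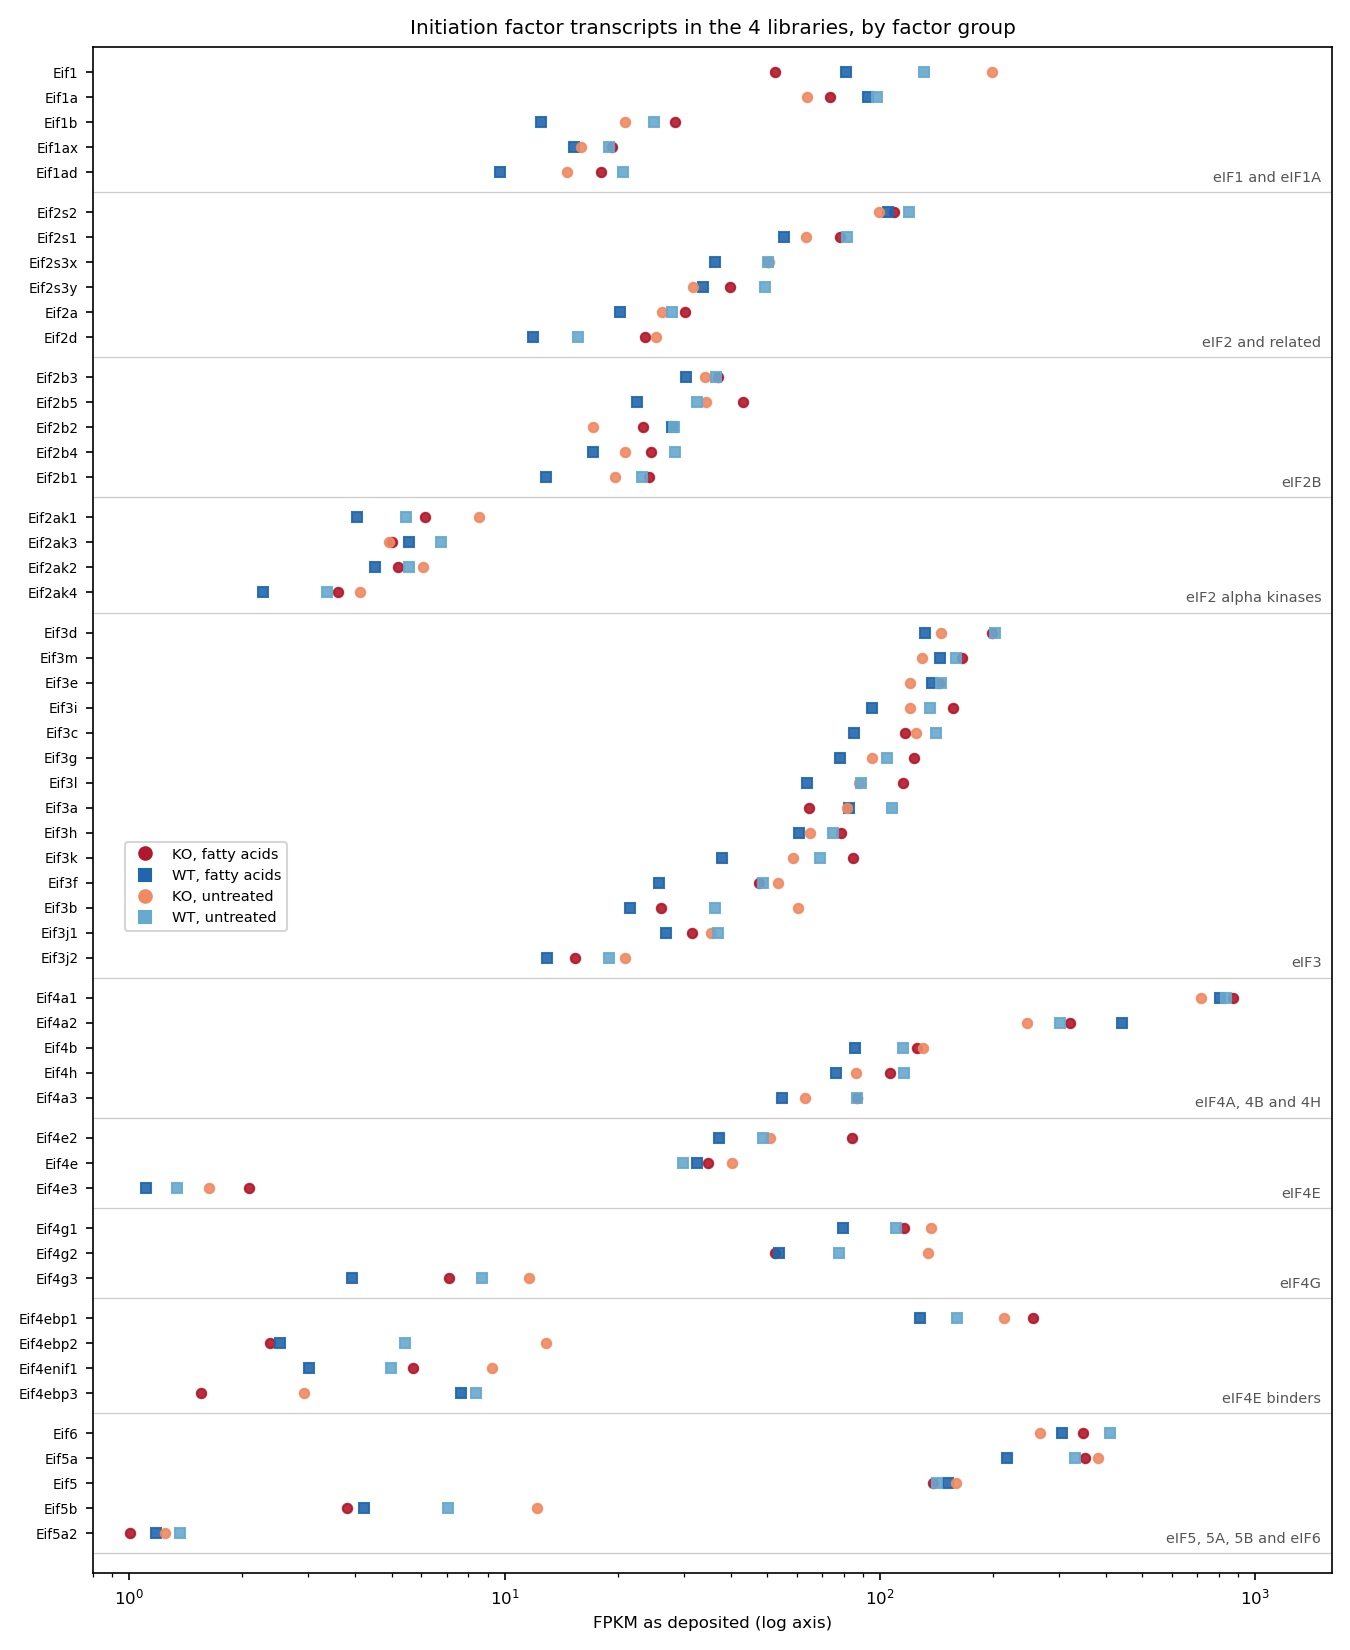
Deposited FPKM on a log axis of the 54 compared initiation factor genes, in blocks by factor group, with 1 point for each of the 4 libraries (circles KO, squares WT, dark colours fatty acids, light colours untreated). Most genes keep their 4 points within 2-fold of each other, while 16 spread by 2-fold or more, the widest being Eif4ebp2, Eif4ebp3, Eif1, Eif5b, Eif4enif1 and Eif4g3.

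Most members differed little between libraries. The ratio of the highest to the lowest deposited FPKM had a median of 1.65 over the 54 members, ran between 1.16 for Eif5 and 5.44 for Eif4ebp2, and was under 2 for 38 of them. The lowest of the 4 values lay in WT with fatty acids for 35 members. Neither count was taken over all genes compared. The deposited FPKM, however, set the median gene at different heights: over 5903 genes with at least 5 FPKM in every library, the median difference in log2(FPKM + 1) was 0.38 for KO minus WT in fatty acids, 0.00 for KO minus WT untreated, 0.16 for fatty acids minus untreated in KO and -0.26 in WT. Differences below are in log2(FPKM + 1) relative to that median gene, and higher or lower means a difference of 2-fold or more. The added 1 understates changes of genes with low FPKM.

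By this rule 6 members were past 2-fold in at least 1 of the 4 comparisons, and 48 in none. With fatty acids in KO cells 5 of 54 members were lower (9.26%) and 0 higher, where 5.05% of all 11927 genes compared were lower and 0.101% higher. With fatty acids in WT cells 0 members were lower and 0 higher, against 0.654% and 3.57% of all genes. In KO against WT, 1 member was lower and 0 higher with fatty acids (8.43% and 3.12% of all genes), and 1 was lower and 1 higher in untreated cells (2.1% and 3.55%). Each of these counts is small, and apart from the 5 in KO with fatty acids each share of members was below or near that of all genes. The median member differed by 0.00 for fatty acids minus untreated in KO and by -0.18 in WT. It differed by 0.08 for KO minus WT in the fatty acid pair and by -0.09 in the untreated pair. Over all genes compared the medians were -0.10, 0.03, -0.06 and 0.08 in the same order. These medians depended on the scale. On TPM they were 0.12, -0.57, 0.84 and 0.19, which turned the sign for KO minus WT untreated, and 16 members were past 2-fold upward and 1 downward for KO minus WT with fatty acids. Of all 11927 genes, 3340 were past 2-fold upward and 360 downward there. TPM moved the median gene itself by 0.30 for KO minus WT untreated, 0.76 for that pair with fatty acids, 0.12 for fatty acids in KO and -0.39 in WT, so a smaller difference of the other sign given below turns round on that scale. On the uncentred deposited FPKM the first 3 medians were 0.17, -0.44 and 0.45, and 3 members were past 2-fold upward and 1 downward for KO minus WT with fatty acids. Of all 11927 genes, 1172 were upward and 498 downward on that scale.

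At a 1.5-fold rule the share of members was near or below that of all genes in most directions, with lower genes in WT with fatty acids above it (11.1% of members). With fatty acids in KO 8 members were lower and 0 higher, against 14.8% and 0.763% of all genes, the 3 added ones being Eif4ebp3, Eif4enif1 and Eif4g3. With fatty acids in WT 6 were lower (Eif1ad, Eif1b, Eif3f, Eif3k, Eif4ebp2 and Eif4g3) and 1 higher (Eif4a2), against 5.09% and 11.7%. For KO minus WT with fatty acids 6 were lower (Eif1, Eif1a, Eif2b2, Eif3a, Eif4a2 and Eif4ebp3) and 4 higher (Eif1b, Eif3k, Eif4e2 and Eif4ebp1), against 19.7% and 11.1%. For KO minus WT untreated 5 were lower (Eif1a, Eif2b2, Eif2s3y, Eif4ebp3 and Eif6) and 7 higher (Eif1, Eif2d, Eif3b, Eif4ebp2, Eif4enif1, Eif4g2 and Eif5b), against 6.73% and 13.7%.

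**Figure D2:**
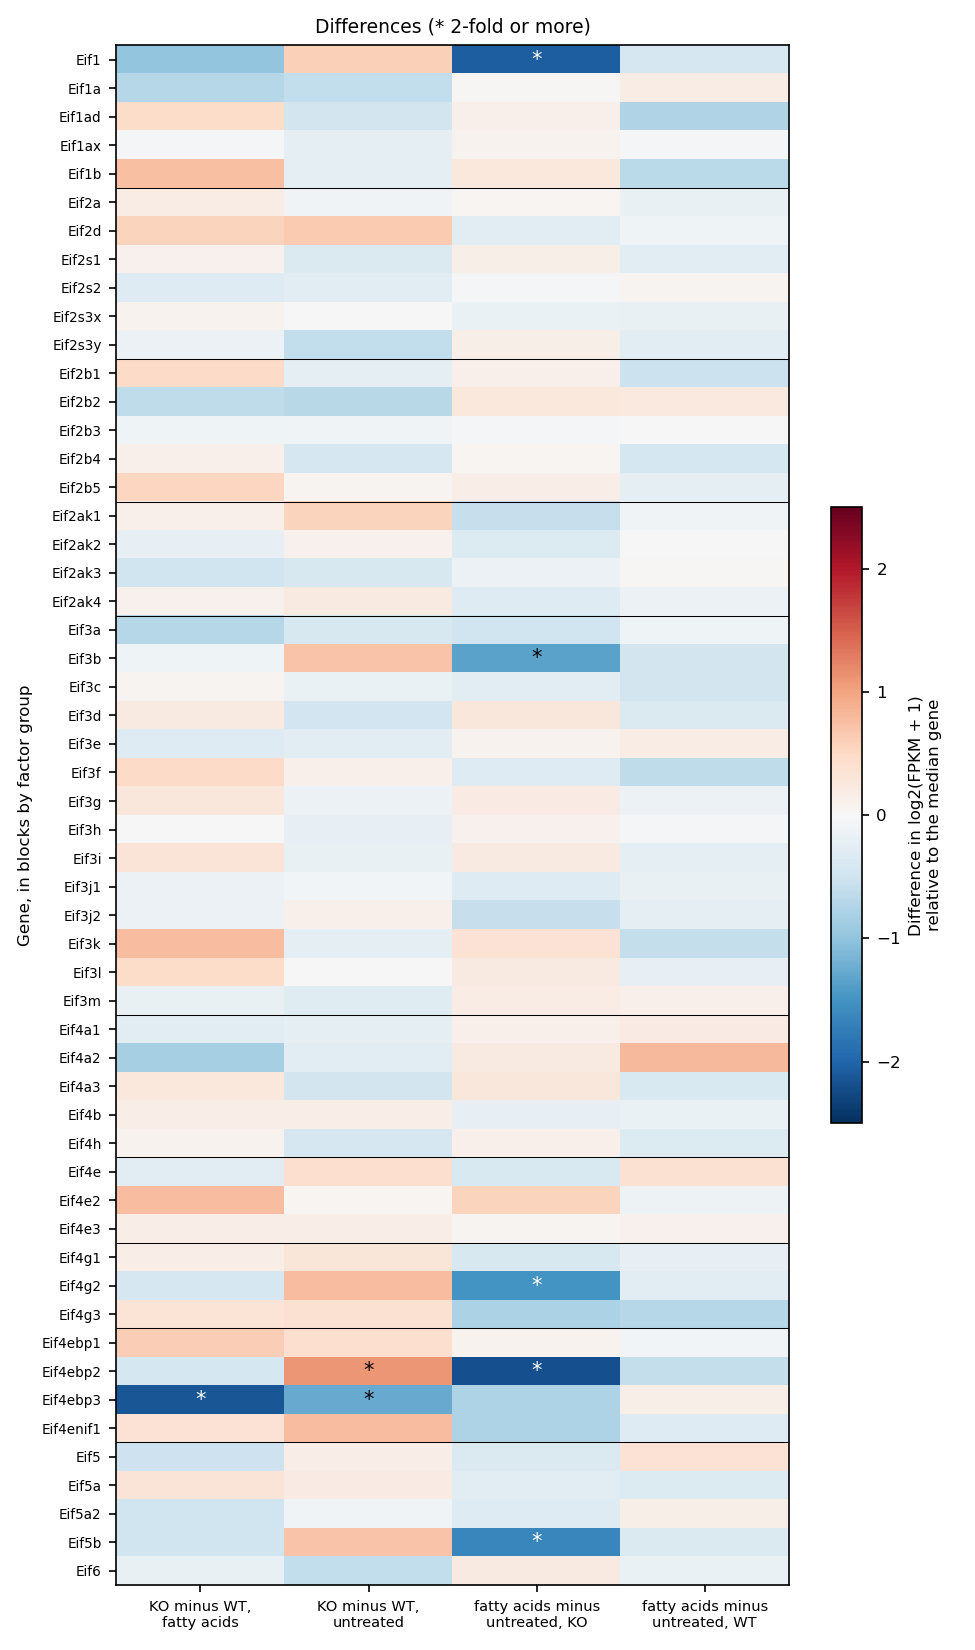
Differences in log2(FPKM + 1) relative to the median gene for the 54 compared members, in blocks by factor group, with 1 column for each comparison (red higher, blue lower in the group named first) and stars at 2-fold or more. The stars fall on 5 members in the column for fatty acids in KO and on Eif4ebp2 and Eif4ebp3 in the columns for KO minus WT, and the column for fatty acids in WT has none.

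Of the 5 members lower with fatty acids in KO cells, 4 act at separate steps of initiation and 1 is an inhibitor. Eif1 encodes the factor that guards start codon choice, and had 52.4 FPKM (7377 reads) in KO with fatty acids, 81.0 FPKM (10578 reads) in WT with fatty acids, 199 FPKM (24939 reads) in KO untreated and 131 FPKM (16293 reads) in WT untreated. Both fatty acid libraries lay below both untreated ones, and the highest and the lowest value were both in KO. The difference with fatty acids was -2.07 in KO and -0.42 in WT. In reads scaled to the library total (CPM) the ratio of fatty acids to untreated in KO was 0.260 (exact binomial 95% interval 0.253 to 0.266, on library totals). Such intervals hold counting error alone, and reads do not stand for independent molecules.

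Eif3b encodes a core scaffold subunit of eIF3, and had 26.1 FPKM in KO with fatty acids, 21.6 FPKM in WT with fatty acids, 60.3 FPKM in KO untreated and 36.3 FPKM in WT untreated. Its difference with fatty acids was -1.34 in KO, with a CPM ratio of 0.427 (0.416 to 0.438), and -0.46 in WT. The other eIF3 genes did not share this size of difference in KO, where they ran between -0.57 for Eif3j2 and 0.36 for Eif3k. The ratio of Eif3b to Eif3a, the largest eIF3 subunit, was accordingly 0.403 in KO with fatty acids, 0.261 in WT with fatty acids, 0.738 in KO untreated and 0.336 in WT untreated in FPKM.

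Eif4g2 encodes an eIF4G relative that lacks the eIF4E-binding region and serves cap-independent initiation. It had 52.4 FPKM in KO with fatty acids, 53.7 FPKM in WT with fatty acids, 134 FPKM in KO untreated and 78.0 FPKM in WT untreated. The fatty acid libraries were close to each other and the untreated ones were not. Its difference with fatty acids was -1.50 in KO, with a CPM ratio of 0.384 (0.38 to 0.388), and -0.27 in WT.

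Eif5b, the subunit-joining GTPase, had 3.80 FPKM in KO with fatty acids, 4.23 FPKM in WT with fatty acids, 12.2 FPKM in KO untreated and 7.08 FPKM in WT untreated. Its difference with fatty acids was -1.62 in KO, with a CPM ratio of 0.307 (0.295 to 0.319), and -0.36 in WT. Eif5b overlaps the translesion polymerase gene Rev1 on the opposite strand. Rev1 had 5.07, 6.57, 4.85 and 6.68 FPKM in the same library order and differed by -0.11 with fatty acids in KO, so its values did not follow those of Eif5b.

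Eif4ebp2 encodes an eIF4E-binding protein, and had 2.37 FPKM (1312 reads) in KO with fatty acids, 2.53 FPKM (1358 reads) in WT with fatty acids, 12.9 FPKM (6726 reads) in KO untreated and 5.42 FPKM (2832 reads) in WT untreated. It had the widest ratio of highest to lowest FPKM of any member. The difference with fatty acids was -2.20 in KO, with a CPM ratio of 0.171 (0.161 to 0.182), and -0.60 in WT. It was also the only member past 2-fold upward in KO against WT untreated, at 1.11, with a CPM ratio of 2.43 (2.32 to 2.54). Neither a pseudocount of 5 nor an adjustment for transcript length and GC content left it past 2-fold, the lowest value being 0.78.

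**Figure D3:**
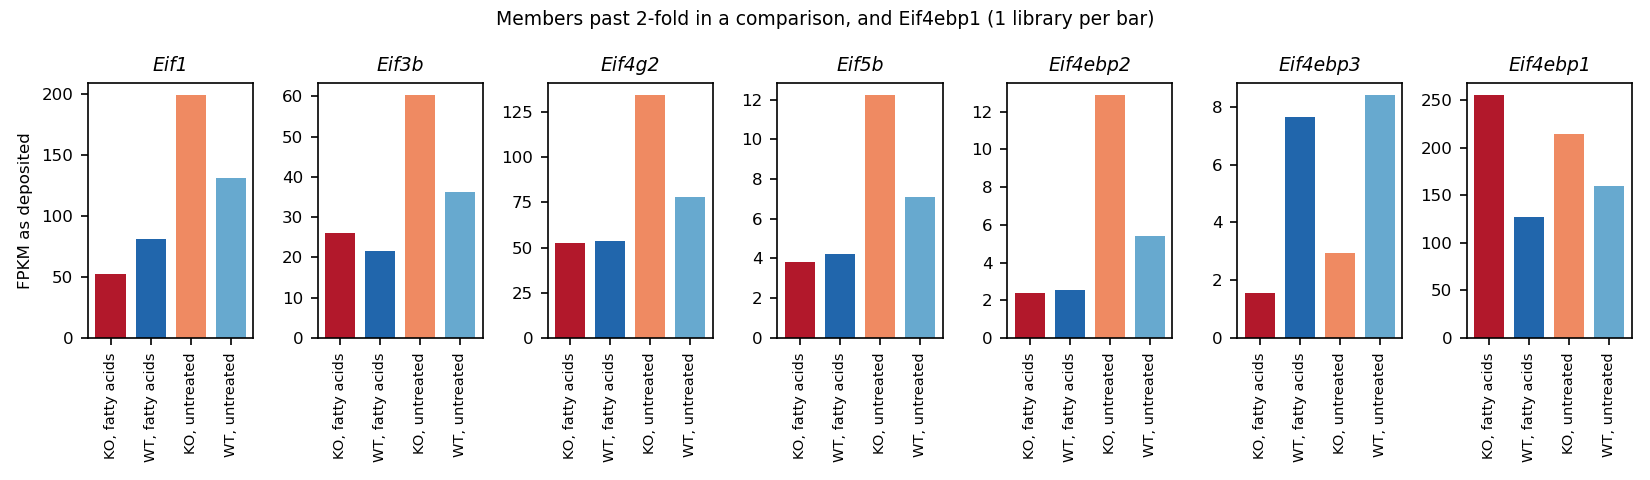
Deposited FPKM of the 6 members past 2-fold in any comparison and of Eif4ebp1, with 1 bar per library on axes that begin at 0. Eif1, Eif3b, Eif4g2, Eif5b and Eif4ebp2 stand highest in KO untreated and second in WT untreated, while Eif4ebp3 is low in both KO libraries.

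These 5 genes shared an order of libraries, with KO untreated highest, WT untreated next and both fatty acid libraries below. Over all members 9 of 54 (16.7%) had that order, the other 4 being Eif2ak2, Eif3f, Eif4g3 and Eif3j2, against 12.0% of all genes compared. The KO untreated library enters both the comparison with WT untreated and the one with KO fatty acids, so the untreated KO minus WT values of 0.60 for Eif1, 0.71 for Eif3b, 0.78 for Eif4g2, 0.71 for Eif5b and 1.11 for Eif4ebp2 are not independent of the fatty acid differences. All 5 were past 2-fold with fatty acids in KO under each of the 7 settings of pseudocount, scale and adjustment that were tried. Markers of other cell types shared this order only in part. The summed macrophage markers were higher in KO untreated than in WT untreated, at 101 FPKM and 46.0 FPKM. They were 117 FPKM in KO and 107 FPKM in WT with fatty acids. The summed endothelial markers were 19.2 FPKM in KO untreated and 6.76 FPKM in WT untreated. With fatty acids they were 13.6 FPKM in KO and 14.4 FPKM in WT. WT untreated was thus the lowest library for both sums, unlike in the order above. All 10 compared macrophage markers and all 4 compared endothelial markers were above the median gene with fatty acids in WT. Among the endothelial markers Cdh5 differed by -1.27 with fatty acids in KO. Of the 4 bile duct markers only Sox9 passed 1 FPKM. Krt19 and Epcam, below that level, had more reads with fatty acids in both genotypes. Krt19 had 15 reads in KO and 34 in WT with fatty acids, against 0 and 0 untreated. Epcam had 41 and 160, against 30 and 43. Sox9 had 1.29 FPKM in KO and 2.61 FPKM in WT with fatty acids, and 5.41 FPKM in KO and 2.86 FPKM in WT untreated. That was the library order of Eif4ebp2, and Sox9 differed by -1.64 with fatty acids in KO. The hepatocyte marker Apob, whose transcript is long, differed by -1.52 in that comparison. The other hepatocyte markers did not share this, and ran between -0.34 for Hnf4a and 0.27 for Ttr. The part of these markers in the result was not tested. The fatty acid difference was lower in KO than in WT by 1.64 for Eif1, 1.60 for Eif4ebp2, 1.26 for Eif5b, 1.24 for Eif4g2 and 0.88 for Eif3b on the log2 scale, a gap that could not be tested with 1 library in each group.

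Transcript length moved with this comparison. In 5 bins of GENCODE transcript length, the median difference with fatty acids in KO was 0.14 in the shortest bin, then 0.04, -0.08 and -0.20, and -0.49 in the longest. KO minus WT untreated, which shares the KO untreated library, ran the other way, from -0.09 in the shortest bin to 0.28 in the longest. From the shortest to the longest bin, fatty acids in WT went from 0.10 to -0.09, and KO minus WT with fatty acids from 0.01 to -0.16. The median transcript length of the 5 genes was 5784 bases (1322 for Eif1 to 7995 for Eif4g2), against 2554 bases for the other 49 members. After adjustment for length and GC content, which was added after the data were seen, the differences with fatty acids in KO were -2.21 for Eif1, -1.88 for Eif4ebp2, -1.31 for Eif3b, -1.15 for Eif5b and -1.02 for Eif4g2. All 5 were still past 2-fold, Eif4g2 by little.

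Eif4ebp3 was the only member past 2-fold downward in KO against WT both with and without fatty acids. It encodes an eIF4E-binding protein of small size and had 1.56 FPKM (200 reads) in KO with fatty acids, 7.65 FPKM (912 reads) in WT with fatty acids, 2.93 FPKM (335 reads) in KO untreated and 8.41 FPKM (955 reads) in WT untreated. Both KO libraries lay below both WT libraries. The KO minus WT difference was -2.13 with fatty acids, with a CPM ratio of 0.201 (0.171 to 0.234), and -1.26 untreated, with a CPM ratio of 0.358 (0.315 to 0.406). The untreated call ended with a pseudocount of 5, where the value was -0.76.

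The upstream neighbour Ankhd1, which in humans is known to form a read-through transcript with EIF4EBP3, bears on this value. Ankhd1 had 3.02 FPKM in KO with fatty acids, 5.99 FPKM in WT with fatty acids, 7.15 FPKM in KO untreated and 6.76 FPKM in WT untreated. Its KO minus WT difference was -1.17 with fatty acids and 0.07 untreated. The low Eif4ebp3 value in untreated KO was thus not matched by Ankhd1, whereas both were low in KO with fatty acids. No source used here says how reads of a shared transcript were assigned.

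Eif4ebp1, the classical insulin-responsive eIF4E-binding protein, supplied nearly all transcript of its family. It had 255 FPKM in KO with fatty acids, 128 FPKM in WT with fatty acids, 214 FPKM in KO untreated and 160 FPKM in WT untreated. Both KO libraries were above both WT libraries, with KO minus WT differences of 0.62 with fatty acids and 0.42 untreated, neither past 2-fold. Its share of summed eIF4E-binding protein FPKM was 98.5%, 92.6%, 93.1% and 92.1% in KO with fatty acids, WT with fatty acids, KO untreated and WT untreated. Eif4ebp3 held 0.600%, 5.55%, 1.27% and 4.83% of the same sum.

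Of the remaining eIF4E binder, Eif4enif1, which carries eIF4E into the nucleus, had 5.70 FPKM in KO with fatty acids, 3.02 FPKM in WT with fatty acids, 9.25 FPKM in KO untreated and 4.99 FPKM in WT untreated. It differed by 0.36 and 0.77 for KO minus WT with fatty acids and untreated. The binding proteins summed to 7.45, 4.23, 5.70 and 5.82 times Eif4e in FPKM in the library order above. In reads the same ratio was 1.62, 0.915, 1.99 and 1.23. The order of KO and WT untreated, and that of KO with fatty acids and KO untreated, are reversed between these measures, so no order is read from either.

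The cap-binding genes gave the clearest gap between measures. Eif4e had 34.8 FPKM (18211 reads) in KO with fatty acids, 32.6 FPKM (16656 reads) in WT with fatty acids, 40.4 FPKM (14040 reads) in KO untreated and 29.9 FPKM (15688 reads) in WT untreated. For KO minus WT untreated FPKM gave 0.42 and reads gave -0.17, so its direction there depends on the measure. The PKR gene Eif2ak2 likewise gave -0.20 from FPKM and 0.21 from reads for KO minus WT with fatty acids. Eif4e2, the cap-binding homologue that takes part in translational repression, had 84.0 FPKM in KO with fatty acids, 37.3 FPKM in WT with fatty acids, 50.9 FPKM in KO untreated and 48.9 FPKM in WT untreated. It stood out in KO with fatty acids and differed there from WT by 0.77, short of 2-fold, while the uncentred deposited scale put it, Eif1b and Eif3k past 2-fold.

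**Figure D4:**
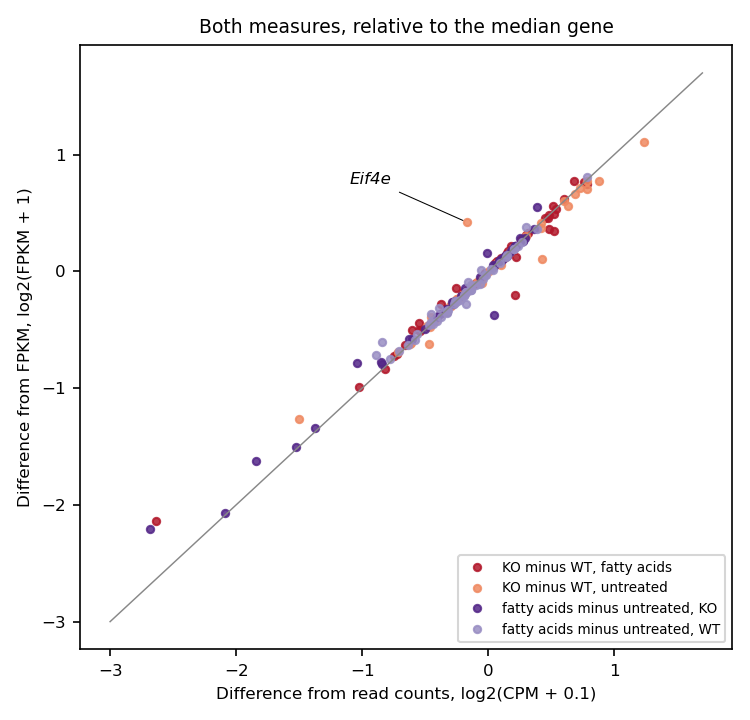
Difference of each of the 51 members with at least 5 FPKM in a library, in each comparison, from read counts, log2(CPM + 0.1) (x axis), and from FPKM, log2(FPKM + 1) (y axis), both relative to the median gene, with the line of equality. Most points lie near the line, and Eif4e in KO minus WT untreated has the widest gap, at -0.17 from reads and 0.42 from FPKM.

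Of the scanning and start codon factors only Eif1 was past 2-fold in any comparison. Eif1b, its near relative, had 28.4 FPKM in KO with fatty acids, 12.5 FPKM in WT with fatty acids, 20.9 FPKM in KO untreated and 25.0 FPKM in WT untreated. The FPKM ratio of Eif1 to Eif1b was therefore 1.85 in KO with fatty acids, 6.48 in WT with fatty acids, 9.52 in KO untreated and 5.25 in WT untreated, lowest in the library where Eif1 was lowest. Eif1a had 73.6 FPKM in KO with fatty acids, 93.0 FPKM in WT with fatty acids, 63.9 FPKM in KO untreated and 98.0 FPKM in WT untreated. KO was below WT in both pairs, by differences of -0.71 and -0.61 with fatty acids and untreated.

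The eIF2 subunits, which together carry the initiator tRNA, stayed short of 2-fold in all 4 comparisons. Eif2s2, the beta subunit and the highest of the group, had 109 FPKM in KO with fatty acids, 105 FPKM in WT with fatty acids, 99.1 FPKM in KO untreated and 120 FPKM in WT untreated. The gamma subunit has X and Y copies: Eif2s3y was found in all 4 libraries at 31.8 to 49.3 FPKM, while Xist reached at most 0.0134 FPKM, so all 4 libraries carried male transcripts. Eif2d, a factor outside eIF2 that acts in recycling and non-canonical initiation, was higher in KO in both pairs without reaching 2-fold, at 23.7 FPKM in KO and 11.9 FPKM in WT with fatty acids, and at 25.4 FPKM in KO and 15.6 FPKM in WT untreated.

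Neither eIF2B, the exchange factor, nor the eIF2 kinases had a member past 2-fold. Eif2b3, the gamma subunit and the highest eIF2B gene by mean, had 37.1 FPKM in KO with fatty acids, 30.5 FPKM in WT with fatty acids, 34.2 FPKM in KO untreated and 36.6 FPKM in WT untreated. The median of the 5 eIF2B genes was 0.12 for KO minus WT with fatty acids and -0.23 untreated. Eif2b2, the beta subunit, was below WT in KO in both pairs, by differences of -0.63 and -0.69. The 4 kinase genes were the lowest group as a whole, with summed FPKM of 20.0 in KO with fatty acids, 16.4 in WT with fatty acids, 23.7 in KO untreated and 21.2 in WT untreated. Eif2ak1, the heme-regulated kinase, was the highest of them in both KO libraries, and Eif2ak3, the kinase PERK of the endoplasmic reticulum, in both WT libraries. The KO minus WT difference of Eif2ak3 was -0.50 with fatty acids and -0.39 untreated.

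The 14 eIF3 genes spanned a wide range of levels. The highest and lowest gene differed by 12.9-fold in KO with fatty acids, 11.2-fold in WT with fatty acids, 6.99-fold in KO untreated and 10.7-fold in WT untreated. Eif3d, the subunit that can itself bind some caps, led in every library but 1, with 199 FPKM in KO with fatty acids, 131 FPKM in WT with fatty acids, 146 FPKM in KO untreated and 202 FPKM in WT untreated. Eif3j2, a near-identical copy of Eif3j1, was lowest in every library, and reads of this pair may have been divided between them. Eif3k, a peripheral subunit, had 84.5 FPKM in KO with fatty acids, 37.8 FPKM in WT with fatty acids, 58.5 FPKM in KO untreated and 69.1 FPKM in WT untreated, and differed by 0.76 for KO minus WT with fatty acids. The eIF3 median was 0.03 between KO and WT with fatty acids, -0.18 between them untreated, 0.10 with fatty acids in KO and -0.23 in WT.

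Among the helicase genes Eif4a2 varied more than Eif4a1. Eif4a2, the less abundant paralogue, had 320 FPKM in KO with fatty acids, 442 FPKM in WT with fatty acids, 247 FPKM in KO untreated and 302 FPKM in WT untreated. It gave the highest value of any member with fatty acids in WT, at 0.81, and differed by 0.22 in KO. The FPKM ratio of Eif4a1 to Eif4a2 was 2.72 in KO with fatty acids, 1.82 in WT with fatty acids, 2.91 in KO untreated and 2.76 in WT untreated. Eif4a2 was also the only compared member whose FPKM was highest in WT with fatty acids. Eif4a3, an exon junction complex helicase, had 86.6 FPKM in KO with fatty acids, 55.0 FPKM in WT with fatty acids, 63.2 FPKM in KO untreated and 86.8 FPKM in WT untreated.

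The scaffold genes differed in level and in range. Eif4g1, the main scaffold, had 116 FPKM in KO with fatty acids, 79.7 FPKM in WT with fatty acids, 137 FPKM in KO untreated and 111 FPKM in WT untreated. Its paralogue Eif4g3 had 7.11 FPKM in KO with fatty acids, 3.92 FPKM in WT with fatty acids, 11.6 FPKM in KO untreated and 8.68 FPKM in WT untreated. All 3 eIF4G genes were below the median gene with fatty acids, at -0.39, -1.50 and -0.79 for Eif4g1, Eif4g2 and Eif4g3 in KO and at -0.20, -0.27 and -0.71 in WT, and of these 6 values only that of Eif4g2 in KO was past 2-fold.

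Of the late factors, Eif5, the GTPase activator of eIF2, had the narrowest range of any member, at 138 FPKM in KO with fatty acids, 152 FPKM in WT with fatty acids, 160 FPKM in KO untreated and 142 FPKM in WT untreated. Eif5a had 352 FPKM in KO with fatty acids, 217 FPKM in WT with fatty acids, 382 FPKM in KO untreated and 332 FPKM in WT untreated. Eif6 had 347 FPKM in KO with fatty acids, 306 FPKM in WT with fatty acids, 267 FPKM in KO untreated and 409 FPKM in WT untreated. Eif6 was lowest in KO untreated and differed from WT there by -0.62.

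A fit of the read counts over all 4 libraries, in which genotype and fatty acids enter additively with 1 residual degree of freedom, allowed a test across 17611 genes. It takes any interaction for noise. The libraries of a genotype differ in treatment and the number of mice behind them is not stated, so its p-values cannot be read as spread between mice. For KO against WT, edgeR's quasi-likelihood test with Benjamini-Hochberg adjustment called 1 member lower and 0 higher, against 1.56% and 1.32% of all genes. The member was Eif4ebp3, at a log2 fold change of -2.11 (SE 0.396, adjusted p = 0.0113 by edgeR), lower in KO in 2 of 2 pairs. Eif4ebp1 had a log2 fold change of 0.51 with an edgeR adjusted p of 0.47. At an unadjusted p below 0.05, 3 members were lower and 1 higher, against 7.39% and 7.8% of all genes. Without the filter on low counts edgeR called 0 members, and 0.317% of genes lower and 0.251% higher.

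For fatty acids against untreated the same edgeR fit called 0 members lower and 0 higher, against 0.0114% and 0.0% of all genes. At an unadjusted p below 0.05, 6 of 54 members were lower (11.1%) and 0 higher, against 3.73% and 1.39% of all genes. These were Eif4ebp2, Eif5b, Eif1, Eif3b, Eif4g3 and Eif4g2. Eif4ebp2 had a log2 fold change of -1.69 (SE 0.383) with an edgeR adjusted p of 0.682, and was lower in 2 of 2 pairs. DESeq2 called 1 member lower, Eif4ebp2, and 0 higher, against 0.277% and 0.0286% of all genes. The same fit by limma on log2(FPKM + 1) called 2 lower, Eif1 and Eif4ebp2, and 0 higher, against 0.361% and 0.109%. The additive fit averages KO and WT, whose fatty acid differences for these genes were unequal.

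Genes that work beside the initiation factors were described through lists of their own. Of 20 initiation helpers, 2 (Pabpc1 and Larp1) were lower and 0 higher with fatty acids in KO, 0 changed by 2-fold in WT, 1 was higher and 1 lower in KO against WT with fatty acids, and 1 was higher and 0 lower in KO against WT untreated. Over all genes 5.05%, 0.654%, 8.43% and 2.1% were lower in these comparisons, and 0.101%, 3.57%, 3.12% and 3.55% higher. The median helper differed by -0.13, -0.19, 0.04 and 0.01 in these comparisons, beside all-gene medians of -0.10, 0.03, -0.06 and 0.08. Pabpc1, the poly(A)-binding protein that joins the tail to eIF4G, had 62.0 FPKM in KO with fatty acids, 76.6 FPKM in WT with fatty acids, 263 FPKM in KO untreated and 119 FPKM in WT untreated. Its 4 libraries ranked as those of Eif4ebp2 did, with a difference of -2.23 with fatty acids in KO and 1.14 for KO minus WT untreated. Ppp1r15a, which directs the phosphatase that reverses eIF2 phosphorylation, had 29.4 FPKM in KO with fatty acids, 61.6 FPKM in WT with fatty acids, 25.2 FPKM in KO untreated and 47.0 FPKM in WT untreated. It was lower in KO by 1.42 with fatty acids, and the untreated difference of -0.88 was short of 2-fold. Bzw2, an eIF5 mimic, was higher in KO with fatty acids, at 26.8 FPKM in KO and 7.49 FPKM in WT.

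Of 17 genes of mTORC1 and the eIF4E kinases, 2 (Deptor and Rptor) were lower and 0 higher with fatty acids in KO, 1 was lower and 0 higher with fatty acids in WT, 1 was higher and 1 lower in KO against WT with fatty acids, and 1 was higher and 0 lower in KO against WT untreated. The all-gene shares beside these were 5.05%, 0.654%, 8.43% and 2.1% lower, and 0.101%, 3.57%, 3.12% and 3.55% higher, in the same order of comparisons. The median of these 17 genes was -0.15, -0.39, 0.33 and 0.04 in that order, beside all-gene medians of -0.10, 0.03, -0.06 and 0.08. Ddit4, an mTORC1 inhibitor induced by stress, had 17.2 FPKM in KO with fatty acids, 3.81 FPKM in WT with fatty acids, 16.1 FPKM in KO untreated and 7.15 FPKM in WT untreated, and was higher in KO by 1.55 with fatty acids and 1.07 untreated. Deptor, another mTORC1 inhibitor, had 0.789 FPKM in KO with fatty acids, 1.81 FPKM in WT with fatty acids, 2.69 FPKM in KO untreated and 2.90 FPKM in WT untreated. Sesn2, a leucine sensor upstream of mTORC1, was lower with fatty acids in WT, at 5.49 FPKM with fatty acids and 18.1 FPKM untreated. None of the 11 compared genes of elongation and release, 2 of hypusination or 2 of mitochondrial initiation was past 2-fold in any of the 4 comparisons.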

How the data were processed

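RNA was prepared with RNeasy columns and DNase, and libraries with a stranded total RNA kit, per the labels' protocols. Per the submitters' processing notes the build was mm10 and the tools included StringTie 2.1.3b, HISAT2 2.1.0, Bowtie2, Trimmomatic 0.38 and FastQC 0.11.7, with no roles stated. No source used here gives the annotation release, counting rule or use of strand, so overlapping genes (31 of 56 members overlap another GENCODE gene, 12 a protein-coding one on the opposite strand) and near-identical copies cannot be told apart. The authors deposited 1 table with whole read counts, FPKM and TPM per gene and library. In it the deposited read counts are raw, the deposited FPKM are scaled to length and library, and the deposited TPM are the FPKM rescaled to an equal sum.

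The members, lists and rules were chosen with earlier results of these data known. Named with values were members past 2-fold, the 3 highest and 3 lowest in each comparison, the highest of each factor group, and up to 3 genes of each other list; other members were named where a count or ratio covered them. Genes reaching 1 FPKM in any library were compared on log2(FPKM + 1), centred on genes with at least 5 FPKM in every library, with a 2-fold rule. CPM ratios have exact binomial 95% intervals. Read counts were fitted with edgeR 4.0.16 (quasi-likelihood, TMM, minimum count 10, Benjamini-Hochberg, 0.05), and in alternatives with DESeq2 1.42.0 and limma 3.58.1, in R 4.3.3; other steps used Python 3.11.15, numpy 2.4.6, pandas 2.3.3 and scipy 1.17.1. The 2-fold rule and the edgeR test of KO against WT were tried on simulated data, and the other steps were not. The design had anticipated FPKM and reads, and TPM served as an alternative. Lengths and GC content are from GENCODE M21 transcripts, which covered 10309 of 11927 compared genes. Gene positions and promoters are from RefSeq on GRCm38.p6, of which mm10 is the same assembly.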

Additional observations from a re-analysis of the deposited data

Results flagged for a closer look

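The KO minus WT difference in log2(FPKM + 1), relative to the median gene, had opposite signs with and without fatty acids for 5 of the 6 members past 2-fold in any comparison. These 5 were called for being lower by 2-fold or more with fatty acids in KO, and none was so in WT. Because all these differences come from the same libraries, a lower KO minus WT value with fatty acids largely follows from that call. The share of all genes with opposite signs was not counted. Eif1 had -0.994 with fatty acids and 0.599 untreated. Eif4ebp2 had -0.442 with fatty acids and 1.11 untreated, Eif4g2 -0.412 and 0.775, Eif5b -0.499 and 0.71, and Eif3b -0.113 and 0.714 in that order. On the deposited scale the values with fatty acids were -0.62 for Eif1, -0.07 for Eif4ebp2, -0.04 for Eif4g2, -0.12 for Eif5b and 0.26 for Eif3b, so Eif3b keeps 1 sign there. For the other member, Eif4ebp3, the difference between fatty acids and untreated was -0.781 in KO and 0.142 in WT, and both were negative on the deposited scale, at -0.62 and -0.12. None of these differences between pairs was tested, since each pair holds 1 library per group.

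Of 11 entries with a factor symbol that are not protein-coding and so were not members, 2 were higher in KO by at least 2-fold with an interval above 1 in both pairs. The share of all genes, or of all pseudogene entries, with such ratios was not counted. Both entries stayed below the 1 FPKM required for comparison, at most 0.857 FPKM for Eif3s6-ps2 and 0.539 FPKM for Eif5al3-ps. Eif3s6-ps2 had 140 reads in KO and 4 reads in WT with fatty acids, a CPM ratio of 32 (exact binomial 95% interval 12.2 to 119), and 41 reads in KO and 5 reads in WT untreated, a ratio of 8.38 (3.31 to 27.2). Eif5al3-ps had 58 reads in KO and 9 reads in WT with fatty acids, a ratio of 5.9 (2.90 to 13.5), and 61 reads in KO and 15 reads in WT untreated, a ratio of 4.15 (2.33 to 7.87). The most read entry, Eif4a-ps4, had 5674 reads in KO and 4411 reads in WT with fatty acids and 4424 reads in KO and 4861 reads in WT untreated, with ratios of 1.18 and 0.930, and Eif1-ps1, with 6 to 33 reads, had ratios of 0.784 with fatty acids and 3.06 untreated. Reads of processed copies can be shared with the parent genes, and whether they were was not tested.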

How the results depend on the processing

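Counts of members moved with the fold rule, the scale and the pseudocount. For KO minus WT with fatty acids the members past 2-fold upward were 3 on the deposited scale (Eif1b, Eif3k and Eif4e2), 16 on TPM and 4 at a 1.5-fold rule, against 0. Of all 11927 genes, 1172, 3340 and 1324 were upward in these settings, against 372. Members downward were 2 with a pseudocount of 0.1, 2 after the length and GC adjustment and 6 at 1.5-fold, against 1. All genes downward were 1398, 687 (of 10309) and 2347 in these, against 1006. For KO minus WT untreated the upward count of 1 became 0 with a pseudocount of 5, 0 after the adjustment, 5 on TPM and 7 at 1.5-fold, and the downward count of 1 became 0 with a pseudocount of 5 and 5 at 1.5-fold. Over all genes the upward count of 423 became 140, 339 (of 10309), 1253 and 1635 in that order. The all-gene downward count of 250 became 99 and 803. With fatty acids in KO the 5 lower members became 8 at 1.5-fold, where the lower genes among all went from 602 to 1768. With fatty acids in WT, lower members were 1 on the deposited scale (Eif1ad), 5 on TPM and 6 at 1.5-fold, and 1 was higher at 1.5-fold, against 0 each. Lower genes among all were 267, 638 and 607 there, against 78, and 1395 were higher at 1.5-fold, against 426. The members' median moved to 0.45 (deposited) and 0.84 (TPM) for KO minus WT with fatty acids, 0.19 (TPM) and -0.25 (CPM with TMM scaling) for KO minus WT untreated, 0.17 (deposited), 0.12 (TPM) and 0.22 (CPM) for fatty acids in KO, and -0.44 (deposited) and -0.57 (TPM) for fatty acids in WT. In the additive fits the 1 member lower in KO became 0 without the filter, and DESeq2 and limma called 1 and 2 members lower with fatty acids, against 0. The cause of these moves was not tested. In all, 29 recomputed counts and medians moved and 103 did not. A count moved if it changed by more than 1.5 times. A median moved if it left the 95% interval of the median over members, which is no spread between replicates. For single named members 489 recomputed differences moved beyond the counting error of the CPM ratio, and 239 did not. The adjustment for length and GC content was chosen after seeing the data. Leaving out a replicate was not possible with 1 library per group. No paired analysis was possible because each group holds 1 library and the labels give no replicate numbers.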
